A study of Mus musculus with 4 samples.

Results

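Circular RNAs (circRNAs) of the Rbm20 locus are described here in differentiated C2C12 cells, an established mouse myoblast line. The deposited tables carry no gene symbols, so the locus was taken by position in the mm9 genome, chromosome 19, plus strand, between 53751000 and 53943000. It held 6 of the 69136 circles listed in 4 libraries. Of these 6, 4 were exonic (of 4074 exonic circles in all) and 2 were intronic (of 65062). All 6 were placed by the tables on 1 transcript, ENSMUST00000164202, which no table at hand pairs with a symbol, so the name Rbm20 rests on position. The nearest plus-strand circles outside the window ended 32560 nt before it, with 1 read in total RNA 1, and began 38938 nt after it, with 4 and 10 reads in total RNA 1 and 2. No circle crossed the edge of the window on either strand. The locus was chosen by its position and by its read numbers in the 4 libraries, so its levels and their differences between libraries are descriptions and were not tested.

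The study compared RNA prepared by RPAD (2 libraries) with total RNA (2 libraries). In RPAD, RNase R digests linear RNA for 30 min, remaining linear molecules are given a poly(A) tail, and molecules with a tail are pulled out on oligo(dT) beads. All libraries came from C2C12 cells without any labelled genetic change, held in medium with 2% horse serum for 3 to 4 days, and ribosomal RNA was removed from all of them. The labelled line of every library is C2C12, although the protocol text for RNase R mentions HeLa, and which holds was not resolved. Whether replicate libraries were made from separate cultures is not stated, so the spread between them may be technical. Without gene symbols, the muscle identity of the cells was not checked against markers.

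RBM20 is an RNA-binding protein of heart and skeletal muscle that regulates alternative splicing, and titin is its best known target. It binds intronic RNA through an RNA recognition motif and holds back the use of neighbouring exons. In the mouse gene, exons 6 and 7 encode the RNA recognition motif, and in the human gene exon 9 encodes the arginine- and serine-rich stretch in which cardiomyopathy mutations cluster. A circRNA forms when the splice donor at the end of an exon is joined back to the splice acceptor at the start of the same or an earlier exon. The joint is read as a back-splice junction, and the values below count such reads.

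All exonic circles of the locus began at exon 2. They ended at exon 4, 5, 7 or 12, and no circle began at exon 3 or at any exon from 4 to 12. The circle of exons 2 to 5 runs on chromosome 19 from 53887738 to 53892510 and joins 4 exons into 1345 nt. The circle of exons 2 to 7 ends at 53909269 and joins 6 exons into 1621 nt. By the annotated transcript, the 276 nt by which these circles differ are exons 6 and 7, those of the RNA recognition motif. The counted reads cross the back-splice junction only, so the exons inside a circle and its spliced length rest on annotation. Exon 2 itself is 1093 nt and makes up 81.3% of the smaller circle and 67.4% of the larger. The longest circle, exons 2 to 12 with 3182 nt, reaches 53928125 and by annotation takes in exon 9. The shortest joins exons 2 to 4 into 1247 nt and ends at 53891727.

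**Figure D1:**
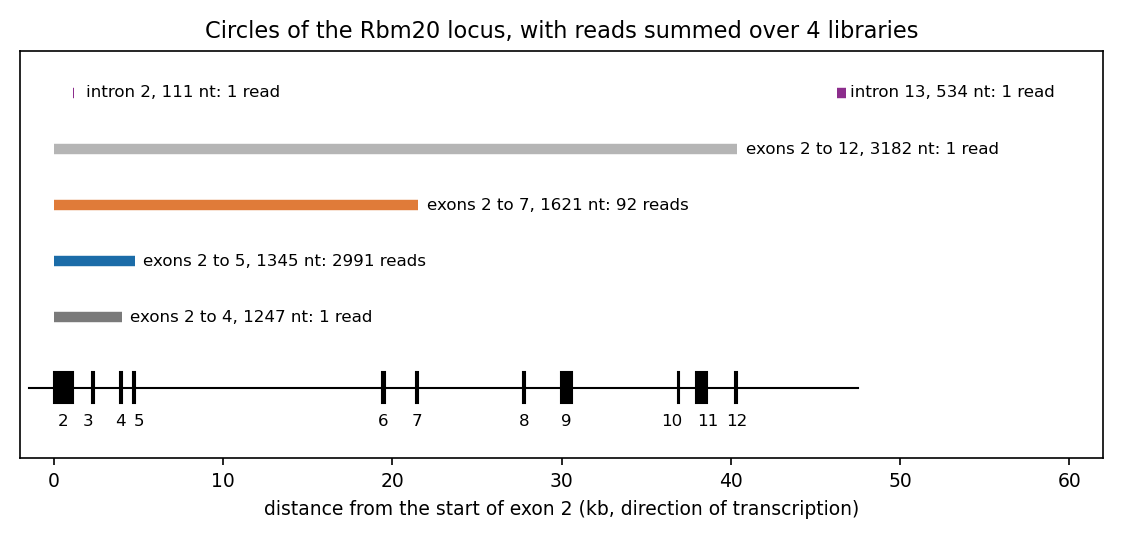
Map of the 6 circles over the Rbm20 transcript. The x axis is the distance in kb from the start of exon 2, black boxes are exons 2 to 12, and each bar spans 1 circle with its spliced length and its reads summed over the 4 libraries; all 4 exonic circles share the left end at exon 2, and the circle of exons 2 to 5 holds 2991 reads.

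The circle of exons 2 to 5 dominated the locus in RPAD 2 and was not read in RPAD 1. It had 0 reads in RPAD 1 and 2888 in RPAD 2, against 82 reads in total RNA 1 and 21 in total RNA 2. The RPAD libraries thus lay on either side of both total RNA libraries, and the groups overlapped. The circle of exons 2 to 7 had 0 reads in both RPAD libraries, against 20 reads in total RNA 1 and 72 in total RNA 2. That circle was read in total RNA alone, and the order of the total RNA libraries was the opposite of that for exons 2 to 5. The circle of exons 2 to 4 had 1 read, in RPAD 2, and the circle of exons 2 to 12 had 1 read, in total RNA 1.

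Reads were set against all exonic back-splice reads of a library, which numbered 55971 and 91868 in RPAD 1 and 2 and 16179 and 15392 in total RNA 1 and 2. These totals are not sequencing depth, so levels are relative to the other exonic circles of a library. The 4 exonic circles together took 0% of exonic reads in RPAD 1 and 3.14% in RPAD 2 (exact Clopper-Pearson 95% interval 3.03 to 3.26%). They took 0.637% in total RNA 1 (0.520 to 0.772%) and 0.604% in total RNA 2 (0.488 to 0.740%). The total RNA libraries agreed within their counting intervals, and the RPAD libraries did not. The group means were 1.57 ± 2.22% in RPAD and 0.620 ± 0.0229% in total RNA (SD, n = 2 each). The difference between the group means is smaller than the SD of the RPAD libraries, and without RPAD 2 its sign turns. PCR copies carry no molecular identifiers, so these intervals, and the limits given for 0 reads, cover counting error only.

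In RPAD 2 the circle of exons 2 to 5 ranked 4 of 777 exonic circles by reads. In total RNA 1 the same circle ranked 21 of 2067 and in total RNA 2 it ranked 137 of 1821. The 0 of 55971 exonic reads in RPAD 1 allow a share of up to 0.00536%, which is 3 reads. The summed level was 119-fold the limit of 3 reads in total RNA 1 and 113-fold in total RNA 2. These folds leave out the counting error of the total RNA reads, so they are not strict lower bounds. The summed level in RPAD 2 was 4.94-fold that of total RNA 1 and 5.20-fold that of total RNA 2. Set against all back-splice reads, intronic ones included, these folds were 5.70 and 5.84. On that base, TMM scaling over all circles gave 10.8 and 11.9, and RLE scaling 8.16 and 9.19.

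**Figure D2:**
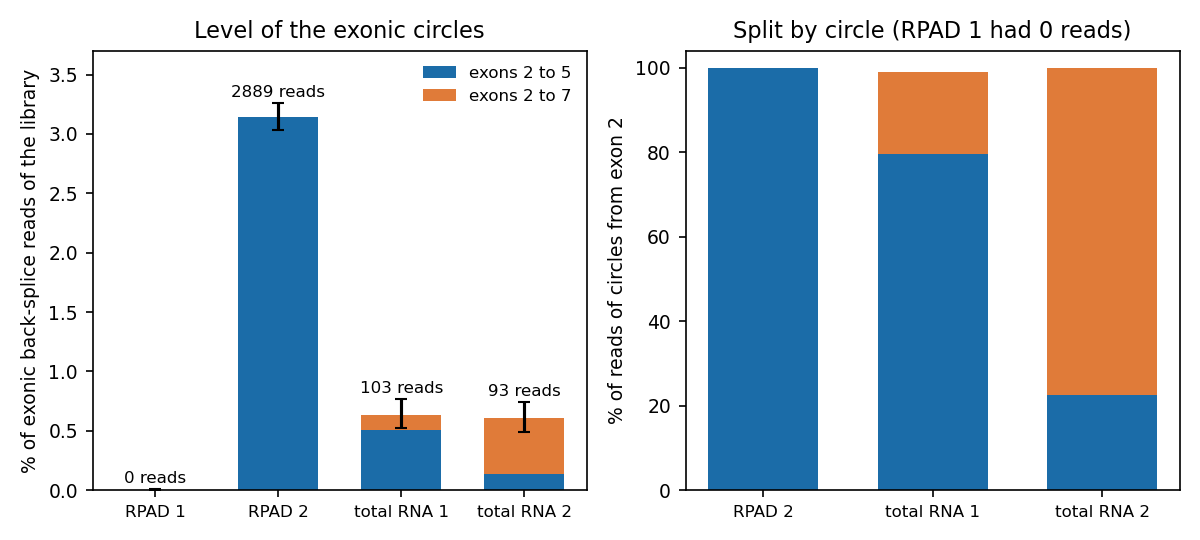
Left, level of the exonic circles of the locus in each library, as a percent of exonic back-splice reads, with exact 95% counting intervals of the sum and the reads above each bar; the circles of exons 2 to 4 and 2 to 12, with 1 read each, are left out of the coloured parts. Right, percent of the reads of circles from exon 2 that each of the 2 main circles took; RPAD 2 stands at 3.14% and almost wholly on exons 2 to 5, and the total RNA libraries have near equal sums (0.637% and 0.604%) with opposite splits.

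How the reads of exon 2 were split between its circles differed in every library that had reads. Exons 2 to 5 took 2888 of 2889 of them in RPAD 2 (at least 99.8% by the exact 95% interval), against 79.6% (70.5 to 86.9) in total RNA 1 and 22.6% (14.6 to 32.4) in total RNA 2. Exons 2 to 7 took 0% in RPAD 2, where 0 of 2889 reads allow a share of up to 0.104%, against 19.4% (12.3 to 28.4) in total RNA 1 and 77.4% (67.6 to 85.4) in total RNA 2. The intervals of the total RNA libraries do not overlap for either circle. Over both total RNA libraries the circles had similar sums, 103 reads for exons 2 to 5 and 92 for exons 2 to 7, and this balance was seen in neither library alone. As a mean of the libraries, exons 2 to 5 took 51.1 ± 40.3% in total RNA (SD, n = 2), and RPAD gives 1 value only.

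The swap between the total RNA libraries was set against other exons from which more than 1 circle began. There were 48 starts, Rbm20 exon 2 included, with at least 2 circles and a minimum of 20 reads in total RNA 1 and in total RNA 2. The leading circle differed between the libraries at 11 of them (22.9%). The share of reads that lay on different circles in the 2 libraries was 58.0% for Rbm20 exon 2 and had a median of 17.96% over the 48 starts, of which 5 had a larger share. The summed level of Rbm20 exon 2 differed 1.05-fold between the libraries, against a median of 1.47-fold. So the sum over the start was close to equal while its make-up was not. For single circles, exons 2 to 5 differed 3.71-fold between total RNA 1 and 2 and exons 2 to 7 differed 3.78-fold in the other direction. A minimum of 20 reads in total RNA 1 and in total RNA 2 was met by 67 exonic circles. Their median was 1.51-fold, and the Rbm20 circles had the 2 largest values. Both passed the minimum narrowly, with 21 reads of exons 2 to 5 in total RNA 2 and 20 of exons 2 to 7 in total RNA 1. No other minimum was tried for this ranking, and the locus was chosen with these reads in view. The minimum of 20 reads leaves out circles that differ more.

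**Figure D3:**
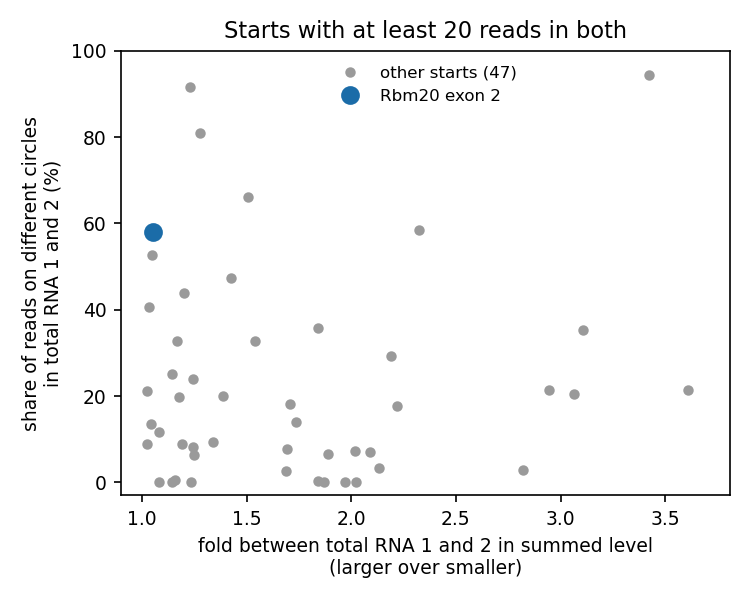
Each point is 1 start, an exon at which at least 2 exonic circles began, with 20 or more reads in total RNA 1 and in total RNA 2 (48 starts). The x axis is the fold between the libraries in the summed level of the start and the y axis the percent of its reads that lay on different circles; Rbm20 exon 2 has 1.05-fold and 58.0%.

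Reads present in 1 RPAD library and missing from the other were common, and the circle of exons 2 to 5 lay at the far end of that pattern. RPAD 2 had 348 exonic circles of 20 or more reads, and 256 of them (73.6%) were at 0 in RPAD 1. The share at 0 was 52.6% (10 of 19; exact 95% interval 28.9 to 75.6%) for circles with at least 1000 reads in RPAD 2. By its RPAD 2 reads, the Rbm20 circle ranked 2 of the 656 exonic circles listed in RPAD 2 and at 0 in RPAD 1, between circles of 3030 and 2472 reads. Together those 656 circles held 51828 reads, 56.4% of the exonic reads of RPAD 2, and 5.57% of them came from Rbm20. In the other direction, 188 of the 273 exonic circles with 20 or more reads in RPAD 1 (68.9%) were at 0 in RPAD 2. The most reads of such a circle in RPAD 1 were 1052. Between the total RNA libraries the share at 0 was 27.3% from total RNA 1 and 28.7% from total RNA 2, at the same minimum of 20 reads.

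The circle with 3030 reads, on chromosome 17 from 6137211 to 6139156, had 0 reads in both total RNA libraries, unlike the circle of Rbm20. Among the 67 well-read total RNA circles described above, 24 (35.8%) were at 0 in RPAD 1 and 20 (29.9%) at 0 in RPAD 2. Of those 67, 2 circles, Rbm20 exons 2 to 5 included, combined 0 reads in RPAD 1 with at least 1000 in RPAD 2. The level of Rbm20 exons 2 to 5 in RPAD 2 was 9.77-fold its mean level in total RNA, against a median of 0.351-fold for the 67 circles, and none of the others had a higher ratio. Taken singly, the fold was 6.20 over total RNA 1 and 23.0 over total RNA 2. The locus was chosen with these reads in view, and the 67 circles by their total RNA reads. Their median includes the 20 circles at 0 in RPAD 2, so the ranking is a description only.

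Exons 2 to 7 belonged to the 12 of 67 circles (17.9%) at 0 in both RPAD libraries. Its 92 reads in total RNA pooled were 0.291% of exonic reads. That is 144-fold a limit of 3 reads over the 147839 exonic reads of RPAD (0.00203%). Against the same limit the fold was 60.9 from total RNA 1 alone and 231 from total RNA 2 alone. These folds leave out the counting error of the total RNA reads. The limit covers the counting of the 0 reads alone, and the share of circles missing from single RPAD libraries applies to it as well. At annotated lengths of 1621 nt and 1345 nt, both main circles are long among exonic circles, whose median was 513 nt. Of exonic circles, 9.35% were longer than exons 2 to 7 and 13.5% longer than exons 2 to 5.

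**Figure D4:**
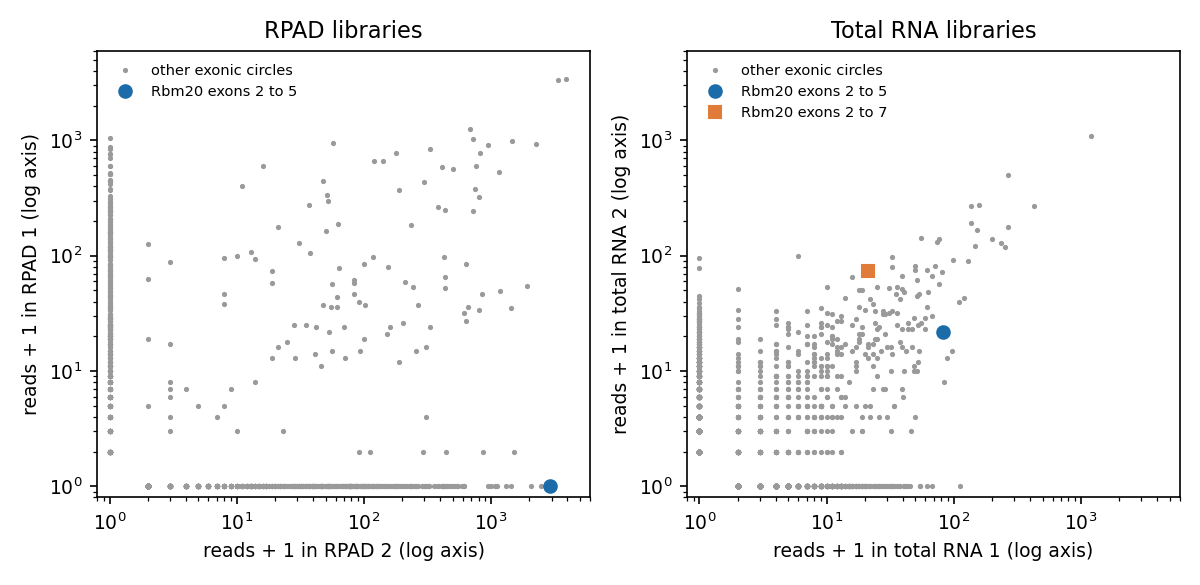
Reads plus 1 of every exonic circle, on log axes, in RPAD 2 against RPAD 1 (left) and in total RNA 1 against total RNA 2 (right); grey points are other exonic circles. Rbm20 exons 2 to 5 (blue circle) lies on the line of 0 reads in RPAD 1 at 2888 reads in RPAD 2, and in total RNA it lies on the opposite side of the diagonal from exons 2 to 7 (orange square).

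The exon at which all exonic circles of the locus began follows intron 1, which is 135655 nt long. Among 3287 exonic circle starts with an annotated upstream intron the median length was 3759 nt, and 18 starts (0.548%) had a longer one. These starts lie at any exon of a transcript, and intron 1 was not compared with first introns alone. Exon 2 is also long for a first exon of a circle, at 1093 nt against a median of 130 nt, with 2.47% of starts longer. Beginning at exon 2 was itself common, since 25.1% of exonic circles did so. None of the 4 circles had an annotated spliced length that is a multiple of 3, a property of 41.0% of exonic circles.

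The main circle ended before the longest of the introns that follow exons 2 to 12. Intron 5 after the circle of exons 2 to 5 is 14625 nt, and ranks 1 of these 11 introns by length. Intron 7, after exons 2 to 7, is 6199 nt and ranks 3, and intron 12, after exons 2 to 12, is 5756 nt and ranks 4. Intron 9, of 6257 nt, ranks 2, and no circle ended at exon 9. Intron 4, after the circle of exons 2 to 4 with its 1 read, is 685 nt and the shortest. Over 3838 exonic circles with both flanking introns annotated the median downstream intron was 3584 nt, and 17.8% had a longer one than exons 2 to 5 and 36.9% a longer one than exons 2 to 7.

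**Figure D5:**
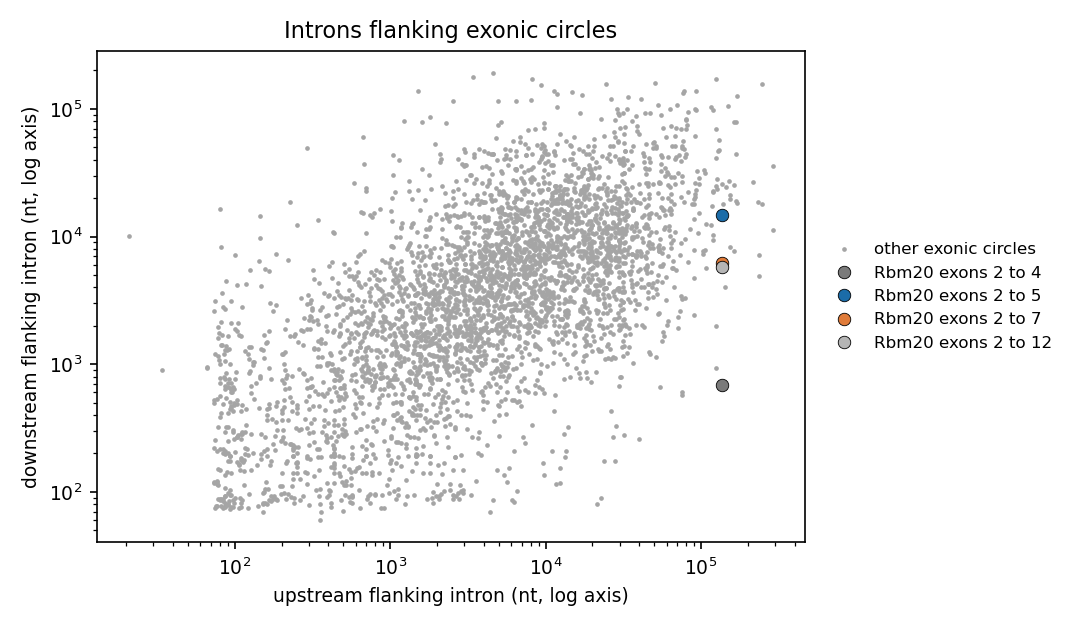
Length in nt of the upstream and downstream flanking introns of exonic circles, on log axes, with the 4 Rbm20 circles in colour. The Rbm20 circles share an upstream intron of 135655 nt and have downstream introns of 685 nt (exons 2 to 4) to 14625 nt (exons 2 to 5).

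Intronic circles, which begin at the 5' splice site of an intron and end inside it, were nearly absent from the locus. Both had 1 read, in total RNA 1, and 0 in the other libraries. One lies in intron 2, from 53888831 to 53888941, 111 nt of an intron of 1175 nt (9.45%), directly behind exon 2. The other lies in intron 13, from 53934004 to 53934537, 534 nt of an intron of 4566 nt (11.7%). Intron 1 and intron 5, the longest introns beside the main circle, gave none.

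Intronic circles took 0 of 2889 locus reads in RPAD 2, which allows a share of up to 0.104%. They took 2 of the locus reads in total RNA 1, or 1.90% (exact 95% interval 0.232 to 6.71%) and 0 of 93 in total RNA 2, which allows up to 3.23%. Over the whole libraries, intronic circles held 52.0% of back-splice reads in RPAD 2, 58.4% in total RNA 1 and 57.2% in total RNA 2. Low intronic shares were common among hosts with many exonic reads, a choice that itself favours low shares. Of 52 hosts with at least 50 exonic reads in total RNA 1, 31 had no intronic read, and the median intronic share was 0%. The share was no higher than the 1.90% of Rbm20 in 41 of the 52, Rbm20 itself included, and this 1.90% lay above the median. So the low intronic share is not particular to Rbm20.

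The 4 exonic circles with the profile most like that of Rbm20 exons 2 to 5 over the 4 libraries were found by total variation distance between levels scaled to a sum of 1, among 308 other exonic circles with at least 100 reads in all. The nearest, on chromosome 8 from 81867553 to 81880368 (exons 3 to 6, 854 nt, distance 0.0329), had 0 and 542 reads in RPAD 1 and 2, against 12 and 3 in total RNA 1 and 2. The circle on chromosome 15 from 81462044 to 81462942 (exons 17 to 18, 329 nt, 0.0368) had 0 and 111 reads in RPAD, against 3 and 0 in total RNA. The circle on chromosome 11 from 77385109 to 77398996 (exons 3 to 9, 745 nt, 0.0384) had 0 and 616 in RPAD, against 12 and 5 in total RNA. The circle on chromosome 3 from 27436871 to 27455118 (exons 4 to 6, 612 nt, 0.0415) had 0 and 125 in RPAD, against 3 and 2 in total RNA. All 4 were at 0 in RPAD 1, which follows largely from choosing them by a profile that is itself at 0 there. None reached 20 reads in either total RNA library. Of the 308 circles, 21 lay within a distance of 0.1, and the median distance was 0.587.

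The main circle of titin, the best known splicing target of RBM20, was read in all 4 libraries. Titin was taken to be the chromosome 2 minus-strand transcript with the most exonic circles, 72 of them. Its most-read circle ran from 76691662 to 76694423. That circle had 3371 and 3383 reads in RPAD 1 and 2, against 1212 and 1093 in total RNA 1 and 2. As a level it took 6.02% and 3.68% of exonic reads in RPAD 1 and 2, against 7.49% and 7.10% in total RNA 1 and 2. By level it was thus lower in both RPAD libraries than in either total RNA library. It took 57.9% and 56.5% of the reads of its start in RPAD and 56.4% and 51.3% in total RNA. The titin host gave 5 of the 48 starts compared above, this one included. Their share of reads on different circles in total RNA 1 and 2 was 13.5% at this start and ran from 7.37% to 66.1% over the 5. The leading circle differed between the total RNA libraries at 2 of them, and 1 had a larger share than Rbm20 exon 2.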

How the data were processed

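Per the file headers, each deposited table holds 1 library and gives, for every circle, the raw count of reads across its back-splice junction, at least 1. The deposited score per junction runs from 0 to 3, per the file headers, and what it measures is not stated. The tools named are cutadapt, TopHat and Cufflinks 2.2.1, with the mm9 build, per the submitters' processing notes. The junction caller is not given in the sources used. Per the labels' protocols, libraries were amplified by 17 cycles of PCR. A circle is its chromosome, start, end and strand; one that a table does not list has 0 reads. Positions are counted from 1. Groups and replicate numbers came from the sample titles. A level is a circle's percent of the exonic back-splice reads of its library. Intervals are exact Clopper-Pearson, and the limit for 0 is 3 reads. The functions that compare circles were tested on simulated data. The locus, the lists and the rule for named circles (at least 10 reads in 1 library, the 3 most-read intronic circles, the 4 nearest profiles, the leading titin circle) were chosen with earlier results of these data known. Comparisons of starts, flanking introns and intronic shares of hosts, and the chromosome 17 circle, were chosen after values were seen. Alternatives used other denominators, edgeR 4.0.16 scaling factors (TMM and RLE, in R 4.3.3), score 0 junctions, read minimums and leaving out a library. Computation used scipy 1.17.1, pandas 2.3.3 and numpy 2.4.6 in Python 3.11.15, with figures from matplotlib 3.10.9.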

Additional observations from a re-analysis of the deposited data

How the results depend on the processing

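The sign of the difference in summed level (RPAD minus total RNA) rested on RPAD 2: 0.952 percentage points of exonic reads in all, -0.620 to 2.52 with 1 library left out, and -0.620 without RPAD 2. For exons 2 to 5 it was 1.25, with -0.322 to 2.82 and -0.322 without RPAD 2. Other denominators, TMM, RLE, score 0 junctions and read minimums kept both differences above 0. Set against all back-splice reads, they were 0.494 and 0.620 points. With at least 2 or at least 5 reads, 2 exonic and 0 intronic circles were left of 4 and 2; with 1 library left out, 3 to 4 exonic and 0 to 2 intronic circles were listed, and 0 intronic circles without total RNA 1. The share of exons 2 to 5 among reads from exon 2 was 48.9 points higher in RPAD 2 than in the mean of total RNA, 77.4 without total RNA 1 and 20.4 without total RNA 2. The share of RPAD 2 circles at 0 in RPAD 1 was 66.1% with at least 100 reads required. The leading circle differed at 25.3% of starts with at least 10 reads and 21.7% with at least 50, both minimums chosen after seeing the data. By its share of reads on different circles, Rbm20 exon 2 ranked 6 of 48 starts with at least 20 reads. It ranked 12 of 75 with at least 10 and 2 of 23 with at least 50. No paired analysis was possible because the results come from no test and the labels do not say what a shared number marks. By replicate number, the difference in summed level was -0.637 points for number 1 and 2.54 for number 2.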
